A study of Mus musculus with 3 samples.

Results

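The mouse genes called Zfp and a number were the ones described here. They were taken by symbol from the gene lists of the deposited table of Nkx2.2 regions, with 1 symbol left out, and each of their regions was counted once. This gave 218 of the 14473 gene names in the table and 422 of its 37271 regions. Nkx2.2, a homeodomain transcription factor, was mapped by chromatin immunoprecipitation and sequencing (ChIP-seq) with a monoclonal antibody. The first of 2 cell states was the oligodendrocyte progenitor cell (OPC), isolated from C57BL/6 mouse cortex at postnatal day 7 through the surface receptor PDGFRA and kept dividing with the growth factors PDGF-AA (10 ng/mL), NT-3 (1 ng/mL) and CNTF (10 ng/mL). The second was the postmitotic oligodendrocyte (OL), made from such progenitors by 48 h without PDGF-AA and with the thyroid hormone T3 at 40 ng/mL. Each state has 1 ChIP library, the number of animals behind it is not given in the sources used here, and cell identity was not checked, because no expression values were used. An input library belongs to the series and was not analysed here.

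Zfp stands for zinc finger protein. Most genes of this name encode C2H2 factors, in which rows of small zinc-bound fingers read DNA. Many of them also carry a KRAB domain, which recruits the corepressor Trim28 and, through it, histone methylation that silences retroelements and imprinted genes. In the mouse these KRAB genes lie in large clusters of near-identical copies, so that short reads of one gene can also match its neighbours, and the values of clustered members are uncertain for that reason. Nkx2.2 itself marks the oligodendrocyte lineage and is needed for timely differentiation of its progenitors.

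The name is not a uniform family. All 218 members matched RefSeq (assembly GRCm38.p6), 195 by their own symbol and 23 by a former one, and 16 are now called something else. Among the latter are Zfp313 (now Rnf114), Zfp364 (Rnf115), Zfp650 (Ubr3) and Zfp294 (Ltn1), which encode ubiquitin ligases, and Zfp289 (Arfgap2), which encodes a regulator of Arf GTPases. Another 42 RefSeq genes now called Zfp had a region under a different deposited name, and they are not members.

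Promoter sequences of 4 members that had a region within 1 kb of the deposited start show how far RefSeq starts differ in CG content, and the printed starts are not shown to be the ones under the regions. Each run below is the 250 bases before a RefSeq start (build GRCm38.p6), read 5′ to 3′ on the gene's strand, with every CG dinucleotide in capitals. Zfp238 encodes a BTB-domain repressor of cortical neuron development and has several RefSeq starts, of which the first (chr1:177442101-177442350, plus strand) has 47 CG dinucleotides and the next (chr1:177444403-177444652, plus strand) has 0. Zfp458 (chr13:67268995-67269244, minus strand) belongs to a cluster on chromosome 13 and has 5. Zfp106 (chr2:120563860-120564109, minus strand), a gene for an RNA-binding protein, has 3, and Zfp281 (chr1:136624651-136624900, plus strand), a gene of the pluripotency network, has 19.
Zfp238, first start: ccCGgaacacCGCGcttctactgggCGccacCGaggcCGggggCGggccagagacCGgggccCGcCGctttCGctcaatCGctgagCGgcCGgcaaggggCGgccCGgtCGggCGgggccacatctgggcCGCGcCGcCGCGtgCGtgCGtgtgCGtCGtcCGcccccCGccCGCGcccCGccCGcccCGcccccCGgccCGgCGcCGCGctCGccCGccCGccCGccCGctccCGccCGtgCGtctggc
Zfp238, second start: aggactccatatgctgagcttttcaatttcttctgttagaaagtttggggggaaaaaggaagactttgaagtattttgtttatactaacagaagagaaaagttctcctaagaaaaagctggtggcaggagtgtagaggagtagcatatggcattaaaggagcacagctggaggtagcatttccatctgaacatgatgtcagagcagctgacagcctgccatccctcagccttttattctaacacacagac
Zfp458: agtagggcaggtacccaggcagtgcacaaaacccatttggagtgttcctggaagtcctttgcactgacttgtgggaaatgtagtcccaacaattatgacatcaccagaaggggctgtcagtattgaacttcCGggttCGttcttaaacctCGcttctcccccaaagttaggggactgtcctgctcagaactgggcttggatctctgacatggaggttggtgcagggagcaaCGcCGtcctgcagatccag
Zfp106: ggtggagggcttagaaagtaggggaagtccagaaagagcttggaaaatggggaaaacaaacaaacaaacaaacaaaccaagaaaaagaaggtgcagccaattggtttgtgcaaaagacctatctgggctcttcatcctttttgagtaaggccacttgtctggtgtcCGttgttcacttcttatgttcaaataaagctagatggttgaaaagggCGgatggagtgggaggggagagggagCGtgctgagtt
Zfp281: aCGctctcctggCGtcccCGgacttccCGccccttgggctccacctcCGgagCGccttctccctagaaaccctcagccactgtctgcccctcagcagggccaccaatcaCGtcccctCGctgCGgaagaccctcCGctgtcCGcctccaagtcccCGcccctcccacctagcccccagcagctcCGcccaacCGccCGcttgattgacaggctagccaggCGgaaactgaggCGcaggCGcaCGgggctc

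Regions at Zfp genes lay at gene starts and CpG islands more often than other regions with a gene. The deposited distance runs from the middle of a region to the gene start, and 167 of 422 regions, 39.6% (exact 95% interval 34.9 to 44.4%), were within 1 kb of a Zfp start. Of the 25920 other regions with a gene, 24.7% (24.2 to 25.3%) were within 1 kb of any listed start. A CpG island, a stretch rich in CG dinucleotides that is usual at promoters of widely expressed genes, was assigned by the authors to 175 Zfp regions, or 41.5% (36.7 to 46.3%). The share was 24.1% (23.6 to 24.6%) of other regions with a gene and 18% of all regions. Intervals here cover counting error over regions only, and neighbouring regions of a gene are not independent. Shared assignment touched these counts, since 180 Zfp regions also listed a gene of another name and 18 of the start regions lay within 1 kb of a further start. Among the 242 regions that listed Zfp genes alone, 30.6% had an island.

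Calls in OPC were near the background of the table, and calls in OL were somewhat more frequent. In OPC 158 Zfp regions were called, 37.4% (32.8 to 42.3%), where 38.6% of all regions were. In OL 380 were called, 90.05% (86.8 to 92.7%), beside 85.3% of all regions, and 116 regions, 27.5% (23.3 to 32.0%), were called in both libraries, beside 23.8%. A further 264 (62.6%) had a call in OL alone and 42 (9.95%, 7.27 to 13.2%) in OPC alone. Over all regions these shares were 61.4% and 14.7%. Of other regions with a gene 87.0% were called in OL and 13.0% in OPC alone, closer to the Zfp values. By gene, 113 of 218 members had a region called in OPC and 207 had one called in OL, while these shares over all gene names were 57.3% and 94.8%.

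**Figure D1:**
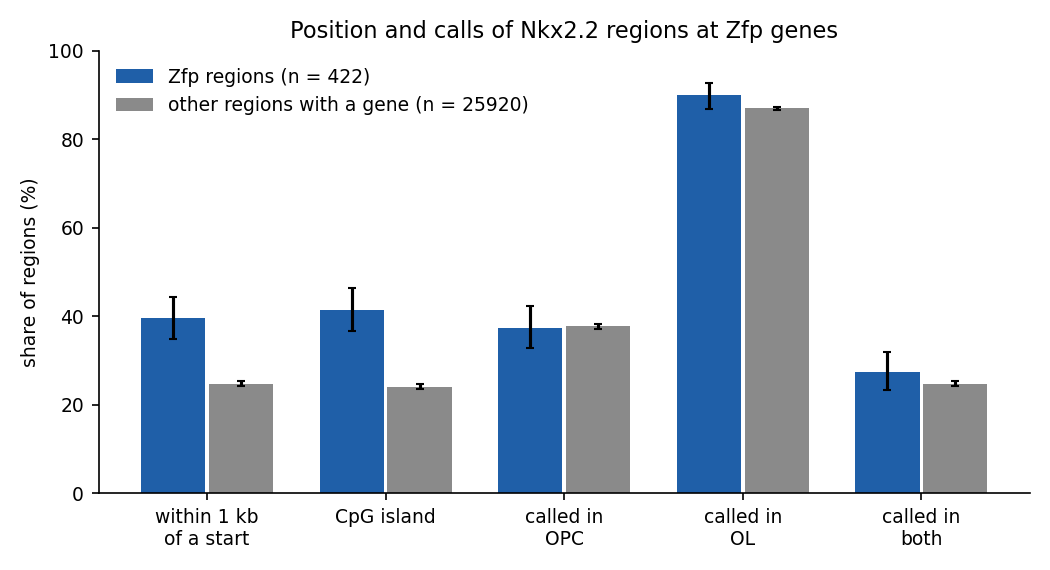
Share of regions (%) for the 422 Zfp regions (blue) and the 25920 other regions with a gene (grey), with exact 95% intervals. Zfp regions were at a start in 39.6% and at a CpG island in 41.5%, beside 24.7% and 24.1%, while 37.4% and 37.7% were called in OPC.

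Signal at Zfp genes was moderate in both libraries. The average signal of a region had a median of 3.17 in OPC and 5.29 in OL, beside 3.00 and 5.0 over all regions, in the authors' units, for which no scaling between libraries is known. Among the 1000 highest regions of OPC 7 were Zfp regions, and among the 1000 highest of OL 7. Among the 100 highest there were 2 in OPC and 0 in OL. For comparison, Zfp regions made up 422 of all 37271 regions. The difference between libraries was taken as log2((OL + 1) / (OPC + 1)), with a pseudocount of 1 that understates the change of weak regions. Its median was 0.68 over Zfp regions and 0.74 over all regions, and it became -0.054 when the median of all regions was set to 0. The ratio was above 0 at 355 Zfp regions (84.1%), against 77.4% of all regions. It reached 1 at 135 Zfp regions (32.0%, interval 27.6 to 36.7%), against 37.5% of all regions, and one of -1 or less at 15 (3.55%, 2.00 to 5.79%), against 7.03%. With the median of all regions set to 0 these counts became 37 and 45, and with the median of the regions called in both libraries set to 0 they became 90 and 22. With 1 library for each state, no test of these differences was possible.

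**Figure D2:**
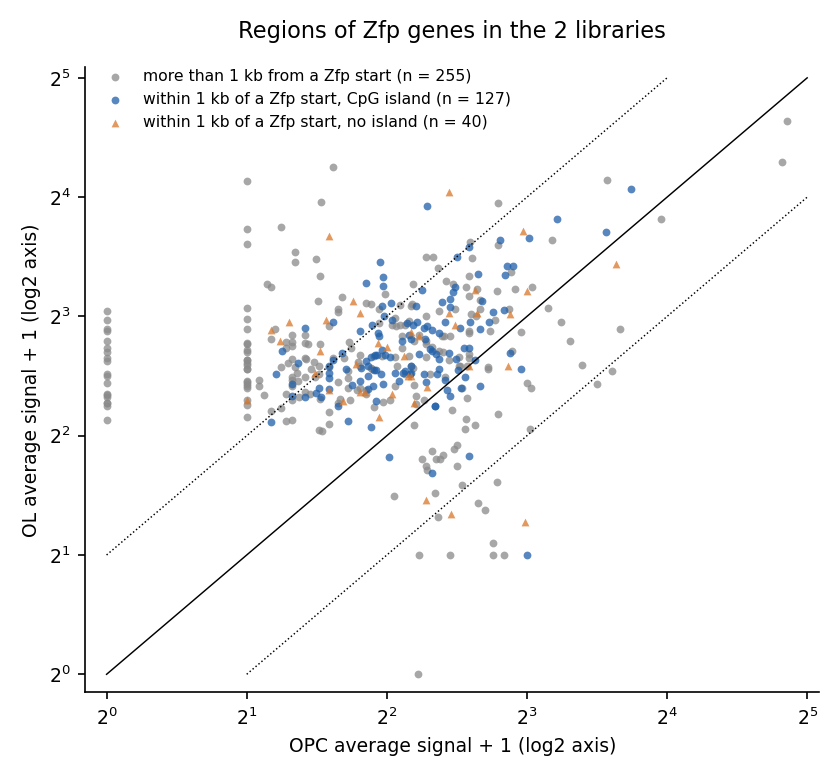
Average signal + 1 in OPC (x) and OL (y), both log2 axes, for each of the 422 Zfp regions. The solid line marks equal signal and the dotted lines a log2 ratio of 1 and -1, beyond which 135 and 15 regions lay, and 19 regions were listed at 0 in OPC.

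Split by position, Zfp regions and other regions had like median log2 ratios in the 3 classes compared. Some shares with a call or an island differed. The 3 classes hold all but 35 Zfp regions. Those 35 lay at the start of another gene only. Of them 60.0% (42.1 to 76.1%) had an OPC call, beside 38.6% of all regions and 40.5% of other regions at starts. Their median log2 ratio was 0.42, beside 0.60 for other regions at starts. At starts with a CpG island the 127 Zfp regions had median signals of 3.5 (OPC) and 5.40 (OL), and the 5361 other regions 3.48 and 5.35. The share called was 39.4% and 39.5% in OPC and 95.3% and 94.6% in OL, and the median log2 ratio was 0.63 and 0.61. At starts without an island the 40 Zfp regions had a median log2 ratio of 0.59 and the 1051 others 0.54. Of the 220 Zfp regions farther than 1 kb from every listed start, 30.9% (24.9 to 37.5%) were called in OPC, and of the 19508 others 36.8% (36.2 to 37.5%). Their median log2 ratios were 0.85 and 0.83. In that last class a CpG island was present at 24 Zfp regions, 10.9% (7.12 to 15.8%), and at 4.52% of the others.

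**Figure D3:**
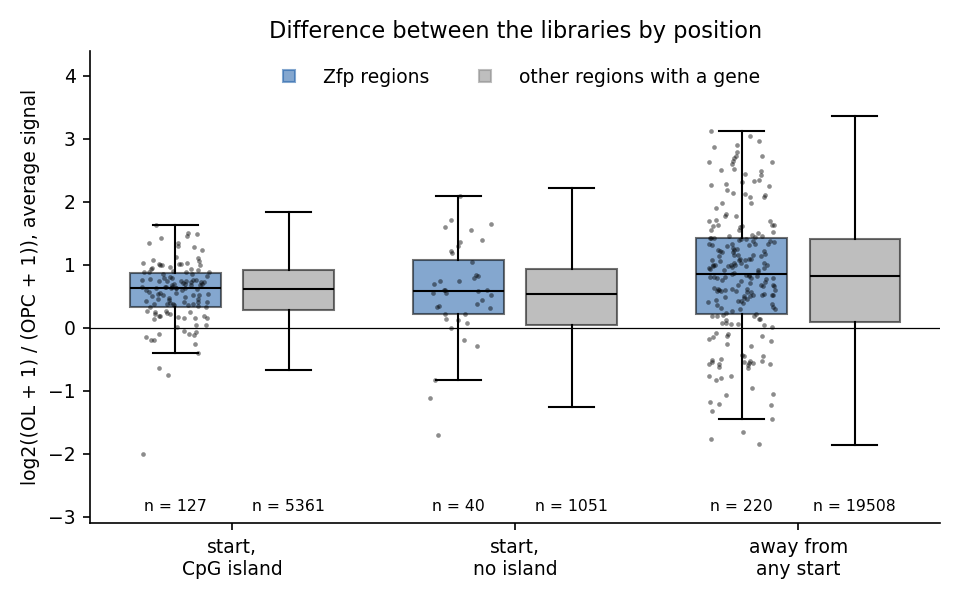
Log2 ratio of OL to OPC average signal by position for Zfp regions (blue, each region a point) and other regions with a gene (grey). Boxes give the median and quartiles and whiskers reach 1.5 times the interquartile range. Zfp medians were 0.63 and 0.59 at starts and 0.85 away from them, each beside a like median of the other regions.

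Within single genes the same contrast between start and gene body was not uniform. In 20 members a region within 1 kb of the start could be set beside regions in the gene more than 10 kb from it. The mean log2 ratio was higher in the gene body in 13 of them and lower in 7, with a median difference of 0.21 and a range of -1.04 to 1.92. Zfp60, for instance, had 0.15 at its start and 1.98 in its body, while in Zfp710 the body was lower than the start by the full -1.04. OPC signal was lower in the body in 14 of the 20 genes and OL signal in 13.

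The same 2 Zfp regions were the strongest in both libraries, well above the rest in OPC, while in OL the second was close to the third. One lay 130273 bp into Zfp533 (now Zfp385b) at chr2:77524132-77525068 (mm9) and had an OPC signal of 27.9 and an OL signal of 24.0. The other 3 regions of that gene had 1.00 to 1.25 in OPC and 5.11 to 8.48 in OL, so the gene held a strong shared region and 3 regions that were weak in OPC and called in OL alone. The second, at chr2:167316276-167317467, lay 1274 bp upstream of Zfp313 and also listed the neighbouring gene Spata2. It had 27.3 and 18.7. Next in OPC came a region 104182 bp from the start of Zfp608 (14.5 in OPC, 13.1 in OL), the start of Zfp142 (12.4 and 15.8), a region 5820 bp upstream of Zfp169 (11.7 and 6.43) and the start of Zfp458 (11.5 and 9.87). In OL the other places among the 6 highest went to a region 8089 bp upstream of Zfp516 (18.1 in OL, 2.06 in OPC), one 4831 bp into Zfp770 (16.7 and 10.9), one 45692 bp into Zfp521 (16.6 and 1.00) and again the start of Zfp142. The Zfp142 region also listed Bcs1l and Rnf25, so that its signal cannot be given to one of the genes.

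Differences were ranked among the 225 Zfp regions with a mean signal above the median of all regions, and there the 6 largest toward OL lay away from the members' starts. Of all 422 Zfp regions 39.6% lay within 1 kb of a Zfp start, so most lay away from one. Zfp521, a cofactor that restrains lineage factors such as Ebf1, had the largest, a log2 ratio of 3.13 at chr18:14085285-14085875. Zfp516, a factor of brown fat development, had 2 of the 6. One lay 34444 bp into the gene with an OL value of 12.3 and an OPC value of 1.00 (log2 ratio 2.73), and the other was the upstream region given above (2.64). Zfp316 had 11.2 in OL and 1.00 in OPC, Zfp551 12.5 and 1.36, and Zfp294 14.5 and 1.88, all 3 without an OPC call. The Zfp294 region lay 9525 bp upstream of that gene and listed 2 further genes. At the regions of Zfp521 and Zfp316 and the one inside Zfp516 the highest OPC signal was 1, so their mean signal came mostly from OL. Without the limit on mean signal, the places after Zfp521 went to regions listed at 0 in OPC, such as one 6436 bp upstream of Zfp473 with 7.27 in OL.

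In the deposited units differences toward OPC were fewer, though not once the median of all regions was set to 0. Under the same limit on mean signal, 1 of the 6 largest toward OPC lay at the start of a member, beside 39.6% of all Zfp regions. Zfp238 had an OPC signal of 6.91 and an OL signal of 1.43 at chr1:179374256-179374994, 167 bp upstream of its deposited start, called in OPC and not in OL and without a CpG island (log2 ratio -1.70). Its other regions, 2594 bp upstream at an island and 2786 bp into the gene, had 3.86 and 5.33, and 4.88 and 3.17. Which of the Zfp238 starts printed above lies under which region was not determined, since the builds differ. A region 122169 bp into Zfp521 had an OPC signal of 11.2 and an OL signal of 4.81 (-1.07), and one listed for Zfp7, Commd5 and Rpl8 had 10.3 and 4.4 (-1.07), with the start of Commd5 7 bp from its middle. The rest of these 6 were listed for Zfp532 (7.11 and 3.16), Zfp609 (9.50 and 5.03) and Zfp169 (given above), and none of these 3 reached a log2 ratio of -1. The Zfp532 region lay downstream, 117651 bp from the Zfp532 start. It also listed 5330437I02Rik, whose start was 387 bp away. Without that limit the most negative ratio was -2.22, at a region downstream of Zfp367, 22874 bp from its start. That region lay within 1 kb of the start of Slc35d2, which it also listed, with 3.67 in OPC and 0 in OL. Of the 5 ratios that followed, 4 were at or below -1.70. The other start regions below -1 were at Zfp286 (7.0 in OPC and 1.00 in OL, log2 ratio -2.00, with a CpG island) and Zfp472 (4.50 and 1.55, without one), and they were singled out after their values were seen.

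Some Zfp genes carried many regions, and in several of these the sign of the difference varied along the gene. Of the 218 members 112 had 1 region, 15 (6.88%) had 5 or more, beside 10.0% of other genes, and the highest number was 14, in Zfp608. Its 14 regions had log2 ratios from -1.23 to 1.43 with a median of 0.26, 10 were called in OPC and 12 in OL, and 8 in both. Zfp407 had 11 regions, all called in OL and 2 in OPC, and every ratio was above 0 (0.34 to 2.35, median 1.00), though 2 of the 11 fell below 0 once the median of all regions was subtracted. Zfp521 had 11 as well, 9 called in OL and 5 in OPC, and its ratios ran from -1.07 to 3.13.

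Zfp704, Zfp609 and Zfp423 also had many regions. In Zfp704, with 10 of them, the 4 between 86276 and 109410 bp from the start had 4.15 to 8.89 in OPC and 1.5 to 6.73 in OL, while the 3 beyond 128 kb had 1.38 to 2.00 and 4.95 to 6.56. Zfp609, which acts with the cohesin loader Nipbl in neural progenitors, had 7 regions with ratios from -0.80 to 1.64. Zfp423, a partner of Ebf factors, had 7 regions, all in the gene body from 45151 to 296020 bp. All 7 were called in OL and 2 in OPC, beside 85.3% and 38.6% of all regions. Their ratios ran from 0.43 to 1.70, of which 3 fell below 0 once the median of all regions was subtracted.

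**Figure D4:**
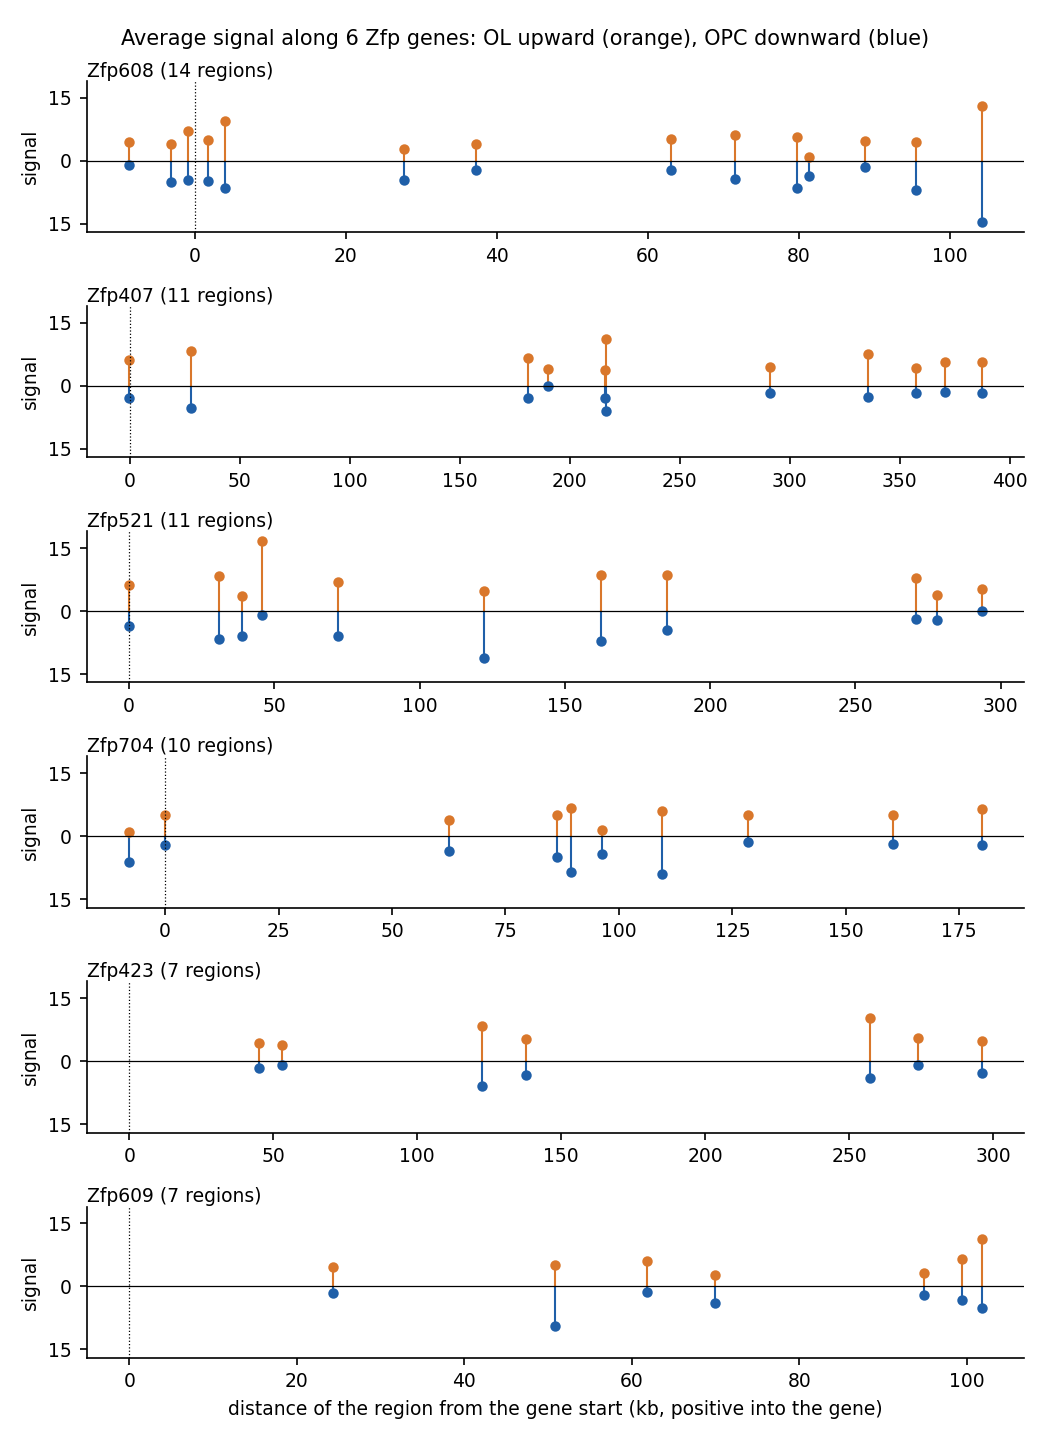
Average signal of each region along 6 Zfp genes, OL upward in orange and OPC downward in blue, against distance from the gene start in kb (positive into the gene; the axis range differs between genes). In the deposited units Zfp407 and Zfp423 had more OL than OPC signal at every region, as had 77.4% of all regions. With the median of all regions subtracted, 2 and 3 of their ratios fell below 0. Zfp608, Zfp521, Zfp704 and Zfp609 held regions of either kind.

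Members with known roles in neurons and glia had calls in both states. Of 14 such genes 12 had a region, where 56.5% of all protein-coding genes and 61.4% of RefSeq Zfp genes did. Of RefSeq Zfp genes numbered up to 811, the highest number in the deposited names, 73.1% did. All 12 had an OPC call and 11 an OL call, beside 57.3% and 94.8% of all gene names. Most of the 12 had several regions. Their 48 regions had a median log2 ratio of 0.59, beside 0.74 over all regions. Of the 48, 13 were at 1 or more and 3 at -1 or less, beside 37.5% and 7.03% of all regions. Calls numbered 22 in OPC and 39 in OL, beside 38.6% and 85.3% of all regions. Zfp191 (now Zfp24), which is required for myelination in the mouse, had an OPC signal of 8.28 and an OL signal of 13.1 over its start, at a CpG island and called in both libraries, and 1.57 and 4.77 at a region 1024 bp upstream. Zfp365 encodes a partner of Disc1 that promotes oligodendrocyte differentiation. It had 4.33 and 4.52 at its start, 5.0 and 6.36 at 18979 bp, and 6.82 in OL at 6389 bp, where it was listed at 0 in OPC. Zfp804a, whose human counterpart is a psychiatric risk gene, was the member of the group with no OL call, with 3.05 in OPC and 2.53 in OL at its start and 4.08 and 1.88 at 11203 bp.

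The rest of the neural list was mixed as well. Zfp536, a brain-expressed repressor of neuronal differentiation, had 5 regions far inside the gene, from 5.77 in OPC and 1.14 in OL at 206162 bp to 2.60 and 7.67 at 97271 bp. Zfp335, a microcephaly gene, had 5.77 and 7.19 at its start. Zfp219 had 5.0 and 10.97 at 970 bp with 2 regions farther in and 1 downstream. Zfp462 had 5 regions with ratios from -0.58 to 0.79, Zfp292 had 3 with 0.56 to 1.81, and Zfp503, a striatal development factor, had 2 with 0.60 and 0.73. Zfp804b and Zfp703 had no region.

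In the smaller role groups most regions had an OL call, as did 85.3% of all regions. Of 4 genes for CCCH proteins that destabilise AU-rich mRNAs, Zfp36 and Zfp36l2 had regions, all 3 with a CpG island. Over all protein-coding genes 56.5% had a region, and over RefSeq Zfp genes numbered up to 811 73.1% did. The only Zfp36 region lay downstream, 6143 bp from its start, and also listed Plekhg2. The Zfp36l2 start had an OPC signal of 3.94 and an OL signal of 5.63. Of 6 pluripotency genes 5 had a region, beside the shares of 56.5% and 73.1% given above. All 5 had one called in OL, as did 94.8% of all gene names. Every one of their 6 regions held an island. An island was present at 41.5% of Zfp regions and 18% of all regions. Zfp281 had 3.10 and 6.85 at its start, Zfp207, which encodes a spindle assembly factor, 6.48 and 9.74, and Zfp706 4.33 and 6.75.

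Of 7 genes for KRAB factors of imprinting and retroelement silencing 4 had regions, beside 56.5% of all protein-coding genes and 61.4% of RefSeq Zfp genes. Of RefSeq Zfp genes numbered up to 811, 73.1% had one. These 4 genes had 7 regions in all, each called in OL and 1 in OPC, where 85.3% and 38.6% of all regions were. The only Zfp708 region lay downstream, 36688 bp from its start, and also listed Zfp712. Zfp445, which guards imprinted loci, had 3.61 and 7.52 at its start. Zfp809, which silences retroviruses, had 2 regions at its start (4.17 and 5.24, 2.85 and 3.46) and one 4282 bp inside with 1.21 and 8.68. Zfp568, a repressor of a placental Igf2 promoter, had 2.80 and 4.87 at its start and 2.14 and 7.20 inside. No region was listed for Zfp57.

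Promoter-binding activators and related factors had regions at 8 of 9 genes, beside 56.5% of all protein-coding genes and 61.4% of RefSeq Zfp genes. Of RefSeq Zfp genes numbered up to 811, 73.1% had one. The 15 regions of the promoter factors had a median log2 ratio of 0.82, beside 0.74 over all regions. Zfp143, which activates promoters of housekeeping genes, had 6.15 and 7.30 at a start that also listed Ipo7. Zfp148 had an OPC signal of 2.93 and an OL signal of 9.06 at its start and 4 regions inside, one of them higher in OPC (7.18 and 4.29 at 112591 bp). Zfp410, an activator of the remodeller gene Chd4, had 3 regions with 1.00 to 1.67 in OPC and 3.62 to 5.87 in OL, none of them within 1 kb of the start. Zfp592 had 1.00 and 7.41 at 46631 bp.

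Of 17 genes of the KRAB corepressor machinery 16 were listed with a region, where 56.5% of all protein-coding genes were. A region within 1 kb of the start was found at 10 of them. Trim28, Setdb1 and Hdac1 were listed only through regions downstream of them that also listed other genes. Chd4 was listed only through upstream and downstream regions that also listed other genes. Of the 39 regions of the 16 genes 37 had an OL call and 9 an OPC call, and the median log2 ratio was 0.61. Ratios of 1 or more numbered 10, and 0 were at -1 or less, beside 37.5% and 7.03% of all regions. Over all regions the called shares were 85.3% in OL and 38.6% in OPC. A region listed for Trim28 and 4 other genes, downstream of Trim28, had an OPC signal of 3.13 and an OL signal of 5.67 at a CpG island 10624 bp from the Trim28 start. Chd3, a subunit of the NuRD complex, had 9.47 and 14.95 at the highest of its 4 regions, and a region downstream of Uhrf1, which couples DNA methylation to replication, had 1.36 and 9.36 and also listed Jmjd2b.

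Start regions could be strong with or without an island. The highest in OL of the 40 without one was Zfp120 with 15.5, and 4.45 in OPC. Zfp84 had 12.1 and 6.86, Zfp398 11.8 and 2.00, and Zfp458 9.87 and 11.5. These genes were named after their values were seen. Among start regions with an island the highest in OL after Zfp142 were Zfp787 (14.2 in OL, 3.89 in OPC) and Zfp191, and Zfp106 had 12.1 and 10.8.

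RefSeq promoter windows of 300 bases could be matched for 172 members, with 218 windows. The median number of CG dinucleotides was 17 in member windows, 7 in all 32851 windows and 13 in those of other protein-coding genes. Members with a start region at an island had 18, those with a start region and no island 9, and members without a start region 20. The core of the sequence that NK2-class homeodomains bind, AAGTG on either strand, was in 49.4% of the 158 windows of members with a start region and in 46.4% of all windows. Of the longer forms, which overlap that core, CCACTT was in 22.2% and 16.9% and CACTTAA in 1.90% and 2.41%. These are letter matches, given as a description. Which start lies nearest each deposited region was not determined for these runs either. Of them Zfp106 held AAGTG at 2 places, on the opposite strand, and Zfp281, Zfp458 and both Zfp238 runs held none. Of the other 3 RefSeq windows of Zfp238, which are not printed, 2 held AAGTG at 2 places each, one of them with CCACTT and the other with CACTTAA.

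Zfp genes were unevenly spread over chromosomes. Chromosome 7, which holds the largest number of members (57), had 89 of the 422 regions, 21.1%, beside 5.77% of all regions. Chromosome 18 had 61 regions from 11 genes, among them Zfp608, Zfp407, Zfp521, Zfp516 and Zfp532. The median log2 ratio was 0.60 over the Zfp regions of chromosome 7 and 0.80 over those of chromosome 18, and all regions of these chromosomes had 0.73 and 0.71.

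By current RefSeq names, 243 of 396 protein-coding Zfp genes had a region, 61.4% (56.4 to 66.2%), against 56.5% of all protein-coding genes. A start region was found at 46.0% (41.0 to 51.0%) of them and at 29.2% (28.6 to 29.8%) of the other protein-coding genes. Genes with 3 or more Zfp genes among their 10 nearest protein-coding neighbours had a region in 57.1% (49.1 to 64.8%), those with 1 or 2 in 47.9% (37.6 to 58.4%), and those with none in 75.9% (67.9 to 82.8%). The deposited names end at Zfp811, and later numbers may not have been in the annotation used. Restricted to genes numbered up to 811, a choice made after seeing the data, the shares were 74.3% (65.1 to 82.2%), 62.2% (50.1 to 73.2%) and 78.4% (70.2 to 85.3%), and 73.1% (67.7 to 77.9%) over all such Zfp genes. The shares did not follow the number of Zfp neighbours in order, and after that restriction the 3 intervals overlapped.

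**Figure D5:**
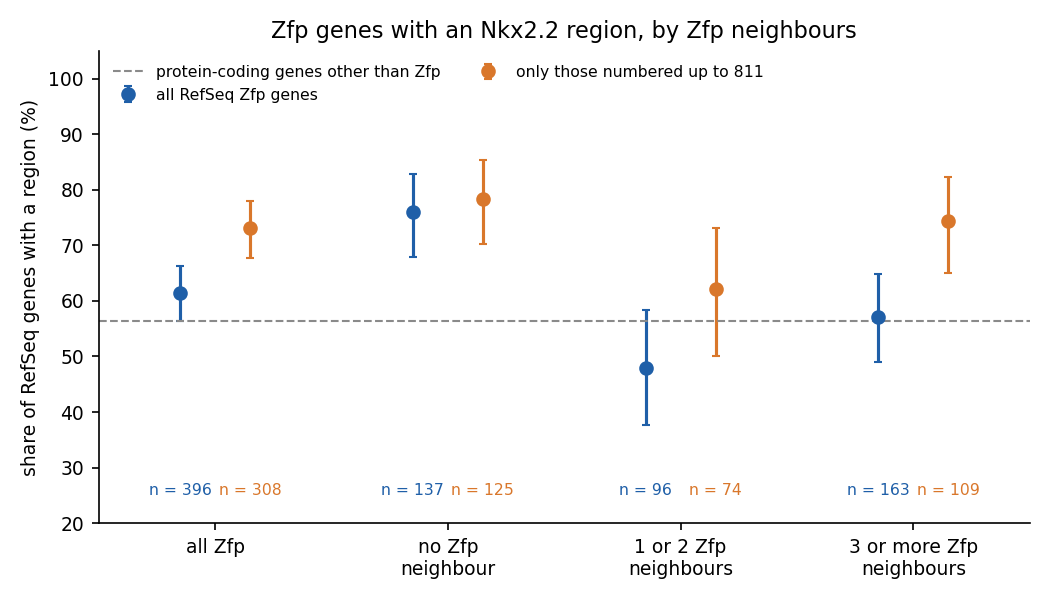
Share (%) of RefSeq Zfp genes with an Nkx2.2 region by the number of Zfp genes among their 10 nearest protein-coding neighbours, with exact 95% intervals (the axis starts at 20%). Over all Zfp genes (blue) the shares were 75.9% without a Zfp neighbour, 47.9% with 1 or 2 and 57.1% with 3 or more. With genes numbered up to 811 (orange) they were 78.4%, 62.2% and 74.3%.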

How the data were processed

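The deposited table joins intervals called in the OPC and OL libraries into regions and gives for each library, per the file headers, a mean and a maximum of the deposited signal, a call, CpG island counts, and listed genes with distances to their starts. The submitters' processing notes name BWA, MACS 1.4.2 and the mm9 build. No source used here gives the thresholds, the use of the input or the scaling of signal, so depth is unknown and counting intervals cover regions only. From these values log2((OL + 1) / (OPC + 1)), counts, medians and exact Clopper-Pearson 95% intervals were computed in Python 3.11.15 with pandas 2.3.3 and scipy 1.17.1, with no filter on low signal, after the code was tested on simulated data. With 1 library for each state no test between states was run. The genes and lists named (the 6 highest regions in each library, the 6 largest log2 ratios of either sign among regions above the median mean signal, the genes with most regions, and the role lists) and the members were chosen with earlier results of these data known. A gene of the same name pattern is not reported here. Alternatives changed the pseudocount, signal measure, scaling, window, filter and shared regions. Promoter sequences are from RefSeq.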

Additional observations from a re-analysis of the deposited data

How the results depend on the processing

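No paired analysis was possible because each state has 1 library, and for the same reason no library could be left out. With the median of all regions set to 0, a shift of 0.74, the median log2 ratio turned from 0.68 to -0.054 over Zfp regions and from 0.63 to -0.10 over their starts with a CpG island. That setting also gave 37 regions at 1 or more and 45 at -1 or less, in place of 135 and 15. With the median of the regions called in both libraries set to 0 these medians were 0.44 and 0.39, and with the highest signal 0.85 and 0.78. The highest signal put 25 regions at -1 or less, and a pseudocount of 2 put 8 there with a median of 0.58. Restriction to regions that list Zfp genes alone left 85 regions called in OPC and 217 in OL, 61 and 125 genes with such calls, 87 regions at 1 or more, a median of 0.76 and an island share of 30.6%. Regions within 10 kb of a Zfp start numbered 104 called in OPC and 243 in OL. These last restrictions lower counts by using fewer regions. The share at starts was 34.8% with a window of 500 bp and 34.1% where the region had to cover the start. The share of RefSeq Zfp genes with a region was 73.1% among those numbered up to 811, an alternative chosen after seeing the data. Of 134 named regions, 47 changed the sign of their ratio with the median of all regions subtracted, 10 with that of the shared regions, and 3 with the highest signal, and none of these had a ratio past 1 or -1 before. Of the 49 named regions past 1 or -1, 30, 15 and 5 no longer were under these settings, and 19 no longer were with a pseudocount of 2. The unknown depth and the lack of an analysed input limit what weak regions can show. Strong regions were not compared with the input here either, among them those of Zfp533 and Zfp313 that were the highest in both libraries.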

Other observations

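Other C2H2 genes, those called Zbtb, Zkscan, Zscan, Klf, Zic or Gli and a number, had 132 regions at 50 genes outside the Zfp regions. Of these 54 were called in OPC, 40.9%, and 119 in OL, 90.2%, and 51 held a CpG island, 38.6%. Their median log2 ratio was 0.61, beside 0.68 for the Zfp regions, and at the 43 start regions with an island it was 0.61, beside 0.63. Whether these sets differ was not tested.

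Calls in OPC without any in OL were found at 11 Zfp genes, 5.05% of members beside 5.24% of other genes, so near the background. Of the 11, 10 had a single region. These were Zfp184, Zfp2, Zfp235, Zfp286, Zfp467, Zfp472, Zfp64, Zfp697, Zfp764 and Zfp87, and the other was Zfp804a. In that group the start of Zfp2 had an OPC signal of 6.77 and an OL signal of 4.91, and that of Zfp87 had 6.29 and 5.0, so an absent call did not mean absent signal.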
